A study of Capsicum annuum with 6 samples.

Results

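The genes described here are 9 pepper (Capsicum annuum) genes that the study assigned to hormone synthesis, 3 to zeatin biosynthesis and 6 to gibberellin biosynthesis. They were taken by identifier from the 24829 genes listed in the deposited values, and all 9 were among the 24738 genes that passed edgeR's filter on low counts. RNA was sequenced at the early flowering stage from the site of the first branch, the fork of the main stem, in 2 accessions. B010 is the compact accession, with a small first branch angle, and B003 is the loose accession, with a large one. Neither was treated, and each accession had 3 biological replicates that the study made by pooling tissue from several plants. Each accession stands for its type alone, so a difference between them is one between 2 genotypes and not one between compact and loose plants in general. The study had drawn the 9 genes from those it found to differ between these same libraries. The differences between B010 and B003 are therefore given as a description, with standard errors and without p-values.

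Cytokinins and gibberellins are growth hormones made by short chains of enzymes. Zeatin is a cytokinin whose synthesis starts when an isopentenyltransferase joins a prenyl side chain to an adenine nucleotide, after which the side chain is hydroxylated and the free base is released. Gibberellins are made from a diterpene precursor that is cyclised in the plastid and then oxidised, first by cytochrome P450 enzymes and last by dioxygenases that give the active forms, while related dioxygenases inactivate them. Cytokinins promote cell division in shoot meristems and bud outgrowth, and gibberellins promote elongation of stem cells. The study compared the transcripts of both accessions to look into what underlies their difference in branch angle.

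Of the zeatin genes, Capann_59Chr01g036340 and Capann_59Chr09g013450 carry the KEGG annotation of isopentenyltransferase in the study, and the enzyme of Capann_59Chr02g030420 is not named in the sources used here. The same holds for the 6 gibberellin genes, so that their place in the chain, and whether any of them acts in inactivation, is not known from these data. The members lie on 7 chromosomes by their identifiers. Capann_59Chr01g036340 and Capann_59Chr01g040430 share chromosome 1 and Capann_59Chr07g026780 and Capann_59Chr07g033870 share chromosome 7, while the others stand alone on chromosomes 2, 3, 6, 9 and 11.

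The study designed qRT-PCR primers for 3 of the members, and these are shown because they are the bases by which each of the 3 transcripts can be found again in any pepper sequence. They are written 5′ to 3′ in lower case, with nothing capitalised. The primers are between 20 and 25 bases long and hold from 40.0% to 60.0% G and C. What was measured with these primers is not analysed here.
Capann_59Chr09g013450 forward: accaaacgggcgaaacttccca
Capann_59Chr09g013450 reverse: tggtgtaatccctgtcgaccatct
Capann_59Chr06g000620 forward: tggcttgggtcaaaaccgca
Capann_59Chr06g000620 reverse: cagcaaggcagccagtgaga
Capann_59Chr07g026780 forward: aaaccatgatattggaccaaatggc
Capann_59Chr07g026780 reverse: tccctccgccaacatttcaaga

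The 6 libraries held between 29891192 and 47659515 counts on genes. The levels below are FPKM as deposited, in which the fragments of a gene are divided by its exon length and by all mapped fragments, and which allow genes of different length to be compared. Replicates were compared in CPM, counts per 1000000 counts of a library after TMM scaling. The factors of this scaling lay between 0.923 and 1.12. B010 replicate 3 had the highest factor, and on the FPKM scale it was the highest B010 library for 63.0% of all tested genes, against 40.8% in CPM. The files do not pair identifiers with gene names, so the tissue could not be checked against marker genes.

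On the deposited scale, 8 of the 9 genes had a higher mean in B003 and 1 in B010. In each of the 9, the libraries of B010 and B003 did not overlap, in FPKM or in CPM. In CPM this was so for 54.4% of all tested genes. By direction, also in CPM, B003 was the higher accession without overlap in 27.6% of all tested genes and B010 in 26.7%. A gene was called when its adjusted p did not exceed 0.05 and its log2 fold change reached 1 or -1 (edgeR's quasi-likelihood test over all genes). All 9 members were called, against 25.3% of all tested genes. Of these, 8 were called higher in B003, against 12.8% of all genes in that direction. The remaining gene, Capann_59Chr07g033870, was called higher in B010, against 12.5% of all genes. Nothing can be read from these counts, since the members had been chosen by this contrast. The median log2 fold change of B010 over B003 was -2.98 over the 3 zeatin genes, -2.26 over the 6 gibberellin genes and 0.01 over all genes tested. The member nearest to the fold limit was Capann_59Chr07g033870, at a log2 fold change of 1.27, and all 9 members passed both limits. Without B010 replicate 1 the number called was 5, and it was 7 without B010 replicate 2, without B003 replicate 2 or without B003 replicate 3. Over all tested genes, the same fits called 3615, 4560, 4294 and 4117 genes in that order, against 6260 with every library. In bulk tissue, fewer cells that express a gene and less of its RNA per cell cannot be told apart.

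**Figure D1:**
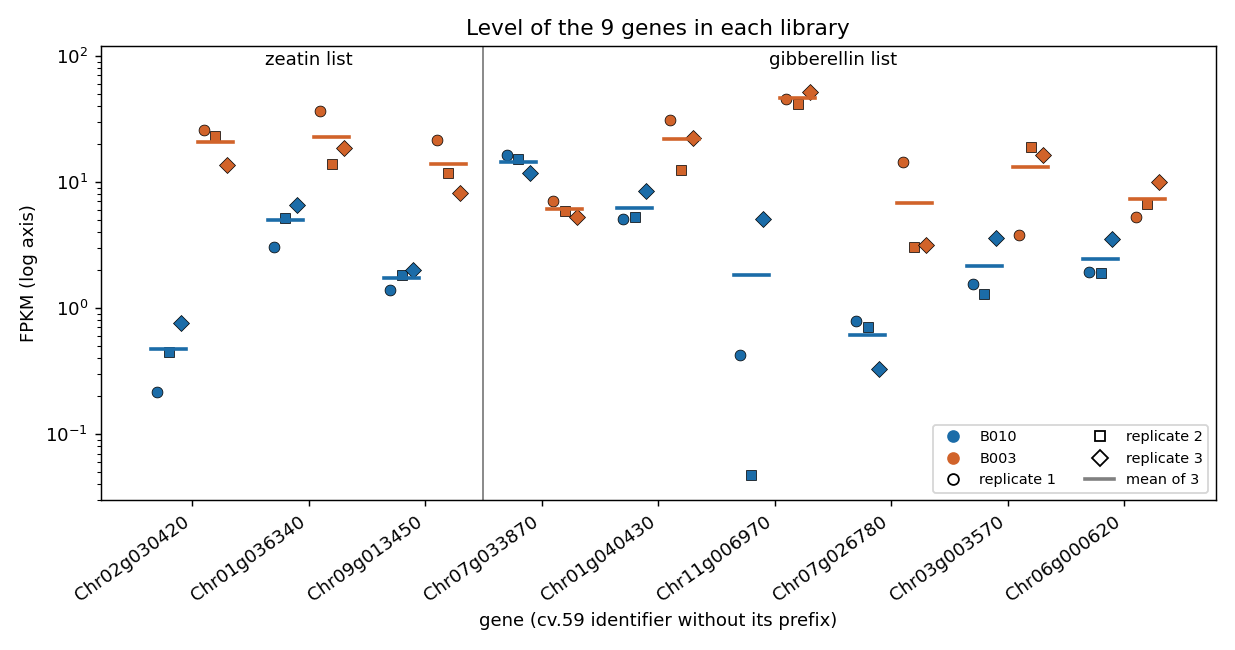
FPKM on a log axis of each of the 9 genes in the 3 B010 libraries (blue) and the 3 B003 libraries (orange), with a marker shape for each replicate number and a line at the mean of 3. The accessions do not overlap in any gene, and the gap runs from 1.04-fold in Capann_59Chr03g003570 to 17.9-fold in Capann_59Chr02g030420 between the nearest libraries of the accessions.

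Capann_59Chr02g030420 had 0.217, 0.444 and 0.761 FPKM in B010 replicates 1, 2 and 3, against 25.9, 23.2 and 13.6 FPKM in the B003 replicates. The zeatin gene was thus near the bottom of the expression range in compact B010, where its mean exceeded that of 4.03% of tested genes, and in the upper part of it in B003, where it exceeded 75.0%. Its mean FPKM was 44.1-fold higher in B003. The log2 fold change, of B010 over B003 here and below, was -5.49 (standard error 0.50). The counts behind the B010 values were 29, 38 and 64 reads, against 2628, 2062 and 1185 in B003.

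The 2 isopentenyltransferase genes, which act at the first step of cytokinin synthesis, were also higher in loose B003. Capann_59Chr01g036340 had 3.05, 5.21 and 6.58 FPKM in the B010 libraries, against 36.4, 13.8 and 18.5 FPKM in the B003 libraries. Capann_59Chr09g013450 had 1.39, 1.83 and 1.99 FPKM in B010, against 21.7, 11.8 and 8.21 FPKM in B003. In both genes B010 replicate 1 was the lowest library and B003 replicate 1 the highest. The log2 fold changes of B010 over B003 were -2.21 (standard error 0.42) for Capann_59Chr01g036340 and -2.98 (standard error 0.38) for Capann_59Chr09g013450. Capann_59Chr01g036340 was the higher of the pair in every library, by 2.19, 2.85 and 3.30 times in B010 and by 1.68, 1.17 and 2.25 times in B003. The ranges of this ratio overlapped between the accessions.

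Summed over the 3 zeatin genes, the level was 4.66, 7.48 and 9.33 FPKM in B010, against 84.0, 48.8 and 40.3 FPKM in B003. This came to an average of 7.16 ± 2.35 FPKM for B010 and 57.7 ± 23.2 FPKM for B003 (SD, n = 3 each), 8.06-fold higher in B003. The lowest B003 library stood 4.32-fold above the highest B010 library. As a log2 ratio of B010 over B003 the difference was -3.01, and it was -3.64 with CPM summed and -3.98 without Capann_59Chr01g036340. The make-up of the sum differed as well. Capann_59Chr02g030420 held 6.25% ± 1.77 of it in B010 and 37.4% ± 8.96 in B003 (SD, n = 3 each). Capann_59Chr01g036340 held 68.5% ± 2.67 in B010 and 39.2% ± 9.53 in B003, while the share of Capann_59Chr09g013450 was close in both, at 25.2% ± 4.30 in B010 and 23.4% ± 2.77 in B003 (SD, n = 3 each). The sum thus came mostly from the isopentenyltransferase gene Capann_59Chr01g036340 in B010. In B003 the order of this gene and Capann_59Chr02g030420 differed by library. Their shares were 43.3% against 30.9% in replicate 1, 28.2% against 47.6% in replicate 2 and 45.9% against 33.7% in replicate 3.

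Among the gibberellin genes, Capann_59Chr11g006970 had 0.422, 0.0472 and 5.05 FPKM in the B010 libraries, against 45.2, 41.3 and 51.7 FPKM in the B003 libraries. It was the most highly expressed of the 9 genes in B003, above 89.6% of tested genes by its mean, and its B003 replicates differed little. In B010 it was uneven, with 25, 2 and 190 reads. In CPM, B010 replicate 3 was 77.3 times replicate 2, with an exact 95% counting interval from 21.1 to 643. The spread of log2 CPM between its B010 replicates was wider than for 99.7% of tested genes (SD 2.91), against 35.8% in B003 (SD 0.18). The log2 fold change of B010 over B003 was -4.80, and its standard error of 1.27 was the largest of the 9. Without B010 replicate 3 the log2 fold change was -7.42 (standard error 0.67).

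Capann_59Chr07g026780 had 0.789, 0.707 and 0.325 FPKM in B010, against 14.4, 3.05 and 3.14 FPKM in B003, where replicate 1 lay far above the other 2. Capann_59Chr03g003570 had 1.56, 1.28 and 3.62 FPKM in B010, against 3.78, 19.0 and 16.3 FPKM in B003, where replicate 1 was instead far the lowest. The spread of log2 CPM between B003 replicates exceeded that of 94.5% of tested genes for Capann_59Chr07g026780 and that of 96.0% for Capann_59Chr03g003570. For Capann_59Chr03g003570 the nearest libraries of the accessions, B010 replicate 3 and B003 replicate 1, stood only 1.04-fold apart. The log2 fold changes of B010 over B003 were -3.41 (standard error 0.76) for Capann_59Chr07g026780 and -2.70 (standard error 0.70) for Capann_59Chr03g003570. Without B003 replicate 1 that of Capann_59Chr07g026780 was -2.36 (standard error 0.44).

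Capann_59Chr01g040430 and Capann_59Chr06g000620 differed less between the accessions than the other members that were higher in B003. Capann_59Chr01g040430 had 5.06, 5.25 and 8.48 FPKM in B010, against 31.0, 12.5 and 22.4 FPKM in B003. Capann_59Chr06g000620 had 1.93, 1.88 and 3.50 FPKM in B010, against 5.23, 6.66 and 9.99 FPKM in B003. Mean FPKM was 3.50-fold higher in B003 for Capann_59Chr01g040430 and 2.99-fold higher for Capann_59Chr06g000620. The log2 fold changes of B010 over B003 were -1.83 (standard error 0.33) and -1.64 (standard error 0.33) in the same order of genes.

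Capann_59Chr07g033870 was the member that was higher in compact B010, with 16.4, 15.3 and 11.8 FPKM in B010, against 7.07, 5.87 and 5.26 FPKM in B003. Its mean FPKM was 2.39-fold higher in B010, and the log2 fold change was 1.27 (standard error 0.21). It had the smallest difference and the smallest standard error of the 9 genes, and the lowest B010 library stood 1.67-fold above the highest B003 library.

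The leading transcript of the gibberellin list was not the same in both accessions, and 1 of the 6 genes ran against the other 5. Capann_59Chr07g033870 led in all 3 B010 libraries and Capann_59Chr11g006970 in all 3 B003 libraries. The share of Capann_59Chr07g033870 in the summed FPKM of the 6 genes was 62.7%, 62.6% and 36.0% in B010, against 6.63%, 6.65% and 4.83% in B003. The share of Capann_59Chr11g006970 was 1.61%, 0.193% and 15.4% in B010, against 42.4%, 46.8% and 47.5% in B003. Capann_59Chr01g040430 held 22.2% ± 3.34 in B010 and 21.3% ± 7.49 in B003 (SD, n = 3 each), and thus kept a similar part of the sum. The sum itself was 26.2, 24.5 and 32.8 FPKM in B010, against 107, 88.3 and 109 FPKM in B003. The average was 27.8 ± 4.39 FPKM for B010 and 101 ± 11.3 FPKM for B003 (SD, n = 3 each), 3.64-fold higher in B003. As a log2 ratio of B010 over B003 this was -1.86, and it was -2.84 without Capann_59Chr07g033870 and -1.09 without Capann_59Chr11g006970, so the size of the difference depended on which of these 2 genes was counted. With CPM summed it was -1.25.

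**Figure D2:**
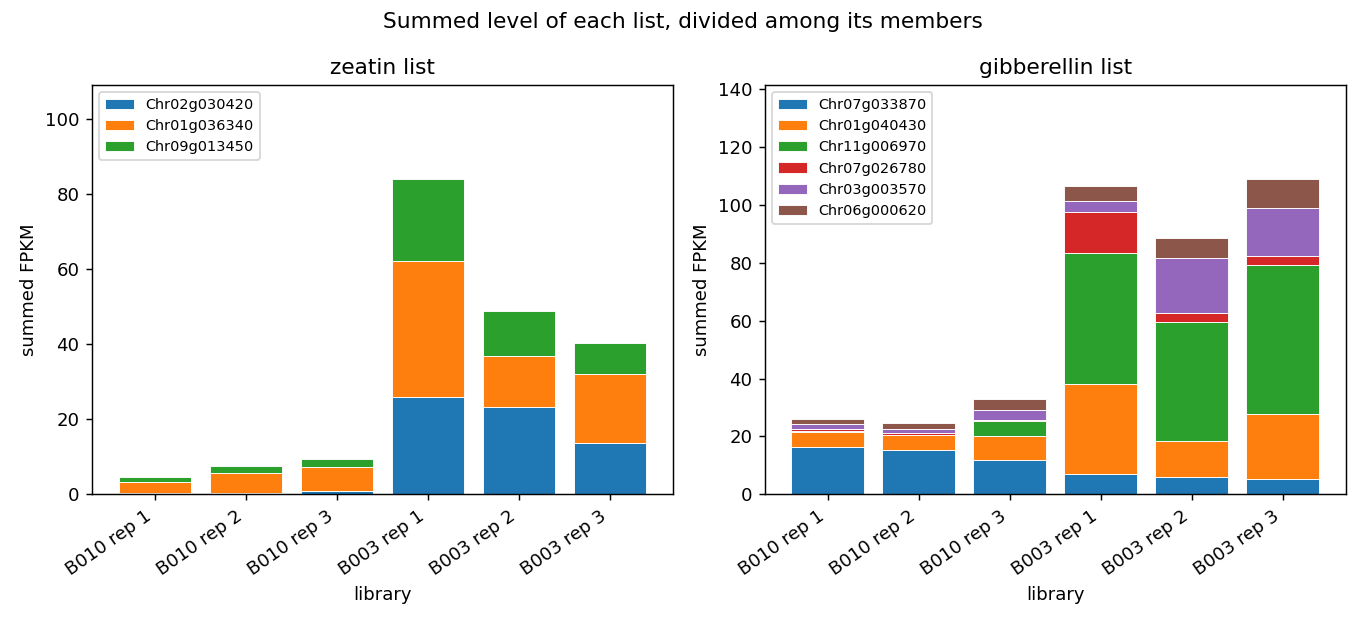
Summed FPKM of the zeatin list (left) and the gibberellin list (right) in each of the 6 libraries, with each bar divided among the members of the list. The zeatin sums run from 4.66 to 9.33 FPKM in B010 and from 40.3 to 84.0 FPKM in B003, and the part of Capann_59Chr07g033870 in the gibberellin bars is large in B010 and small in B003.

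The order of the 9 genes by mean FPKM was not the same in both accessions. Capann_59Chr07g033870 had rank 1 in B010, at 14.5 ± 2.40 FPKM, and rank 9 in B003, at 6.07 ± 0.922 FPKM (SD, n = 3 each). Capann_59Chr02g030420 had rank 9 in B010, at 0.474 ± 0.273 FPKM, and rank 4 in B003, at 20.9 ± 6.48 FPKM (SD, n = 3 each). Capann_59Chr11g006970 had rank 6 in B010, at 1.84 ± 2.79 FPKM, and rank 1 in B003, at 46.0 ± 5.25 FPKM (SD, n = 3 each). Capann_59Chr07g026780 had rank 8 in both accessions. Genes next to each other in the order were mostly not separated in all libraries. In B010 the exceptions were Capann_59Chr07g033870, which lay above Capann_59Chr01g040430, and Capann_59Chr09g013450, which lay above Capann_59Chr07g026780. In B003 the exception was Capann_59Chr11g006970, which lay above Capann_59Chr01g036340.

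The variation among replicates was examined apart from the difference between accessions, by setting each library's log2 CPM against the mean of its own accession. In B010, replicate 1 was the lowest library for all 3 zeatin genes, while 21.5% of tested genes were lowest there. The median deviation of these 3 was -0.62 in B010 replicate 1, 0.23 in replicate 2 and 0.32 in replicate 3. For Capann_59Chr09g013450 the order rested on few reads, 66, 55 and 60 in replicates 1, 2 and 3, at 1.39, 1.99 and 1.77 CPM. Its highest B010 library was replicate 2, and that of the other 2 genes was replicate 3. Whether its order exceeds counting error was not tested. In B003 replicate 1 was the highest library for all 3, though for Capann_59Chr02g030420 only by 66.9 against 66.7 CPM in replicate 2, while 40.9% of tested genes were highest there, and the median deviations were 0.66, -0.06 and -0.53 in replicates 1, 2 and 3. The median over all tested genes was at most 0.01 from 0 in every library.

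The gibberellin genes did not move as a block. In B010 replicate 3, 4 of the 6 were at their highest (Capann_59Chr01g040430, Capann_59Chr11g006970, Capann_59Chr03g003570 and Capann_59Chr06g000620) and the other 2 at their lowest. The share of tested genes was 40.8% highest and 39.1% lowest in that library. In B003 replicate 1 the list was divided evenly, with 3 genes highest and 3 lowest. Of all tested genes, 40.9% were highest there and 43.5% lowest, so this division was near that of all genes. Capann_59Chr07g033870, Capann_59Chr01g040430 and Capann_59Chr07g026780 were at their highest there, with deviations of 0.13, 0.50 and 1.37, as were the zeatin genes. Capann_59Chr11g006970, Capann_59Chr03g003570 and Capann_59Chr06g000620 were at their lowest, with deviations of -0.12, -1.57 and -0.52, although on the FPKM scale Capann_59Chr11g006970 was lowest in replicate 2. The median deviations of the gibberellin list in B003 were therefore close to 0, at 0.01, -0.06 and 0.19 in replicates 1, 2 and 3.

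Over the 6 libraries both lists were low in B010 and high in B003, a relation that the choice of the members fixes. Within B010, the summed FPKM of both lists was highest in replicate 3. On the CPM scale this held for the zeatin sum, at 4.63, 8.34 and 8.73 CPM in replicates 1, 2 and 3, and not for the gibberellin sum, at 77.5, 80.8 and 75.3 CPM. Within B003 the zeatin sum was highest in replicate 1, at 84.0 FPKM, and the gibberellin sum was near equal in replicates 1 and 3, at 107 and 109 FPKM, although in CPM it was 181, 167 and 207 in replicates 1, 2 and 3. The ratio of the zeatin sum to the gibberellin sum was 0.178, 0.306 and 0.285 in B010, against 0.788, 0.552 and 0.370 in B003, without overlap, and the ratios did not overlap in CPM either. These ratios include Capann_59Chr07g033870, the gibberellin gene that was higher in B010. It held 62.7%, 62.6% and 36.0% of the gibberellin FPKM sum in B010, against 6.63%, 6.65% and 4.83% in B003. Ratios without this gene were not computed, so the gap cannot be read as a difference between the 2 lists. A correlation between the lists was not computed, because the accessions form separate clusters and 3 libraries in each are too few. Library depth moved with part of this pattern, since B010 replicate 1, the lowest library for the zeatin genes, had the most counts, 47659515, and B003 replicate 1, their highest, had the most counts of its accession, 36975048. Depth thus went with a low value in B010 and with a high one in B003, and its part in the pattern was not tested.

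**Figure D3:**
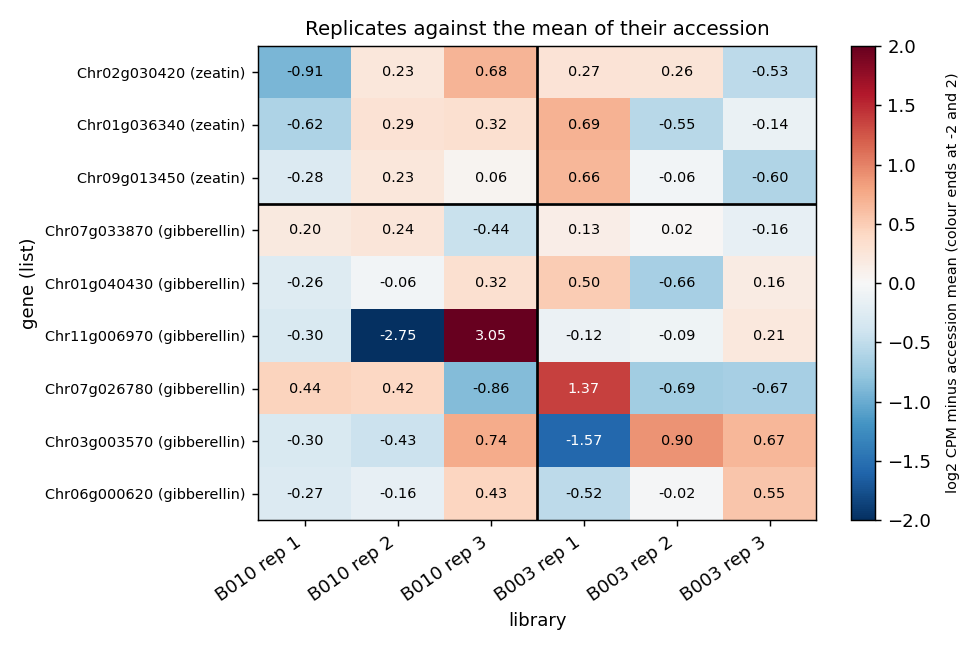
Log2 CPM of each of the 9 genes in each library minus the mean of the 3 libraries of its accession, from blue (below) to red (above), with the value printed in each cell. The zeatin genes share their low library in B010 (replicate 1), and in B003 replicate 1 is their highest, nearly equalled by replicate 2 in Capann_59Chr02g030420, whereas the gibberellin genes are divided in B003 replicate 1, from -1.57 to 1.37.

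The nearest member to each gene was of the same list for 5 of the 9 and of the other list for 4. The share that lists of 3 and 6 genes would give without any likeness was not computed, so nothing is read from this count. Likeness was measured as the root mean square difference of log2 CPM, centred for each gene, over the 6 libraries, and it includes the difference between accessions that chose the genes. The isopentenyltransferase gene Capann_59Chr01g036340 and the gibberellin gene Capann_59Chr01g040430 were each other's nearest member, at 0.32. By that measure Capann_59Chr01g040430 was the 24th of 24737 genes in nearness to Capann_59Chr01g036340, the best such rank among the 9 members. Seen from Capann_59Chr01g040430, the rank was 76. Capann_59Chr07g026780 was nearest to the zeatin gene Capann_59Chr09g013450, at 0.63 and rank 36. Capann_59Chr03g003570 was nearest to another gibberellin gene, Capann_59Chr06g000620, at 0.73 and rank 715. For the remaining members, the rank of the nearest member was 99, 100, 488, 2379 and, for Capann_59Chr07g033870, 21581.

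Over all tested genes, the gene nearest to each member lay between 0.04 and 0.70 away. The closest match was that of Capann_59Chr07g033870 with Capann_59Chr12g024620, at 0.04. Capann_59Chr12g024620 had 58.1, 61.6 and 38.2 CPM in B010, against 22.4, 22.0 and 19.2 CPM in B003. Capann_59Chr06g000620 had the unannotated locus LJ_newGene_8173 at 0.07, Capann_59Chr03g003570 had Capann_59Chr06g007370 at 0.15, and Capann_59Chr01g040430 had LJ_newGene_5618 at 0.16. For the isopentenyltransferase genes the nearest were Capann_59Chr01g037320, at 0.17 from Capann_59Chr01g036340, and LJ_newGene_2516, at 0.17 from Capann_59Chr09g013450. Capann_59Chr07g026780 had Capann_59Chr11g030150 at 0.34 and Capann_59Chr02g030420 had LJ_newGene_3824 at 0.38. The uneven Capann_59Chr11g006970 had no gene closer than LJ_newGene_8838, at 0.70. Functions of these genes are not named in the sources used here.

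The genes on either side of the members were not used in choosing them. Taking up to 5 listed genes on each side in the order of the identifiers gave 86 neighbours, all of them tested. Only genes whose identifier names a chromosome could be neighbours. The shares over all tested genes below also cover the unannotated LJ_newGene loci, which were 3169 of the 24829 genes listed. The neighbours and all tested genes are thus unlike sets, and shares without these loci were not computed. Of these, 11 were called between B010 and B003, or 12.8%, against 25.3% of all tested genes, and 10 of the 11 were higher in B003. This share of 11.6% higher in B003 was near the 12.8% over all genes. In the other direction, 1 of the 86, or 1.16%, was called higher in B010, against 12.5% of all tested genes. Their median log2 fold change was -0.03. The other 75 neighbours were not called.

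Capann_59Chr07g026780 was the exception, with 4 of its 10 neighbours called, all higher in B003, against at most 2 for every other member. In 1 of the 4 the libraries of the accessions overlapped, with 27.4 FPKM in B010 replicate 3 and 24.0 FPKM in B003 replicate 1. With 1 library left out, 3 or 4 of these 4 were called. Of the 4, Capann_59Chr07g026830 had the largest log2 fold change, -2.90 (standard error 0.47). It had 7.85, 5.26 and 15.2 FPKM in B010, against 38.9, 69.8 and 90.7 FPKM in B003. The gene listed just before the member, Capann_59Chr07g026760, is named because its libraries were alike, a choice made after its values were seen. It had 3.18, 4.57 and 3.87 FPKM in B010, against 43.8, 13.3 and 17.8 FPKM in B003, so that B003 replicate 1 was its highest library as it was for Capann_59Chr07g026780. Of all tested genes it was the 20th in likeness to that member, at a root mean square difference of 0.57. If the 2 are near-identical copies, reads could have been divided between them, which the counts do not show.

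Around the other members, 7 neighbours were called, and 6 of them were higher in B003. Capann_59Chr01g040250, 5 places before Capann_59Chr01g040430, had 0.671, 0.844 and 0.856 FPKM in B010, against 16.0, 12.2 and 13.6 FPKM in B003, and its log2 fold change was -4.13 (standard error 0.19). For Capann_59Chr02g030490, 5 places after Capann_59Chr02g030420, the log2 fold change was -3.87 (standard error 1.02), and for Capann_59Chr03g003630, 4 places after Capann_59Chr03g003570, it was -3.61 (standard error 0.73). The gene just before Capann_59Chr07g033870, Capann_59Chr07g033860, ran against that member, with 1.52, 1.31 and 1.17 FPKM in B010, against 3.50, 3.68 and 3.27 FPKM in B003. Smaller changes were found in Capann_59Chr06g000610, at -1.36 (standard error 0.23), and in Capann_59Chr01g036390, at -1.19 (standard error 0.14). The neighbour called higher in B010 was Capann_59Chr03g003650, 5 places after Capann_59Chr03g003570, with 14.0, 14.6 and 9.38 FPKM in B010, against 4.29, 3.81 and 2.30 FPKM in B003, and it is named because it was the only one in that direction, a choice made after its values were seen. Its log2 fold change was 1.88 (standard error 0.33).

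**Figure D4:**
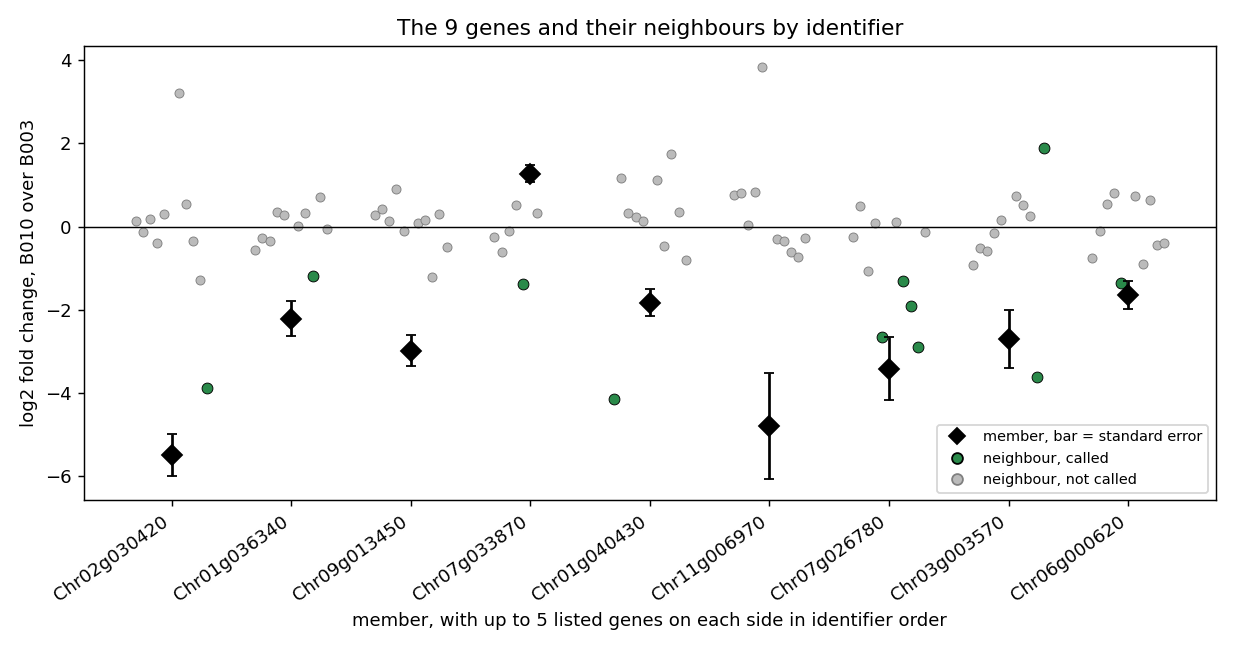
Log2 fold change of B010 over B003 for each of the 9 genes (black diamonds, bars show the standard error) and for up to 5 listed genes on each side in identifier order (circles, green where called and grey where not). Most circles lie near 0, with a median of -0.03, and 4 green circles stand below 0 around Capann_59Chr07g026780.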

How the data were processed

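RNA-seq libraries of the first branch site of 3 B010 and 3 B003 replicates were analysed. The authors filtered paired reads and aligned them with HISAT2 to the cv.59 genome, and their processing notes also name StringTie. The counting program, its strand setting and its treatment of reads with several alignments are not given in the sources used here. The deposited counts are whole reads per gene without normalization, and the FPKM deposited by the authors divide by exon length and mapped reads. The columns of the authors' own comparison (log2 fold change, p-value, q-value and call) were not used.

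The test used edgeR 4.0.16 (R 4.3.3) on the counts of all 24829 listed genes. Its expression filter removed 91 genes, libraries were scaled by TMM, and the quasi-likelihood test compared B010 with B003 without further terms, with Benjamini-Hochberg adjustment. Standard errors were derived from the log2 fold change and the F statistic. Log2 CPM used a prior count of 1. No library pair of an accession agreed within sampling noise (chi-square per degree of freedom at least 28.7). A count of 3, the limit that a 0 allows, is at most 0.100 per 1000000 counts when TMM factors are left out, and counting intervals cover counting error only. The fits with edgeR, DESeq2 and limma (pseudocount of 1) were tested on simulated counts. For limma these were scaled to 1000000 counts per library without gene length, so its fit on FPKM was not itself tested. The sums, shares, deviations, nearest genes, neighbours and figures were not tested in this way. DESeq2 1.42.0 and limma 3.58.1 on log2(FPKM + 1) and log2(FPKM + 0.1) were among the alternatives.

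The text names all 9 members, the gene nearest to each in expression over the libraries, and the called neighbour of each with the largest change. The members and lists were chosen with earlier results of these data known. Of the identifiers, 0 matched the RefSeq gene table of the species, assembly UCD10Xv1.1, so no names, coordinates or sequences were taken from it.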

Additional observations from a re-analysis of the deposited data

How the results depend on the processing

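All 9 genes kept their direction in every fit, and all 9 were called with the Wald test of DESeq2, with RLE or upper-quartile factors, without a filter, with both limma fits and without a fold limit, and 6 with a limit of 2 on the log2 scale. With 1 library left out, between 5 and 9 were called, and 44 of the 54 fits of single genes kept their call. Calls were lost for Capann_59Chr03g003570 in 4 fits, Capann_59Chr11g006970 in 3, Capann_59Chr07g026780 in 2 and Capann_59Chr06g000620 in 1. Over all tested genes, 6260 were called, between 3615 and 6967 with 1 library left out, 9598 without a fold limit and 3229 with a limit of 2 on the log2 scale. Of the neighbours, 11 were called, 24 without a fold limit and 5 with a limit of 2. The replicate block left 9 members called, 12 neighbours and 5458 genes in all, with a log2 fold change of -5.94 for Capann_59Chr11g006970, which was -5.97 with limma and a pseudocount of 0.1. With limma and a pseudocount of 1, the log2 fold change was -3.86 for Capann_59Chr02g030420, -1.98 for Capann_59Chr03g003570, -2.0 for Capann_59Chr07g026780 and -2.35 for Capann_59Chr09g013450. Deviations of same-numbered libraries correlated across genes at -0.00318, 0.0763 and 0.178, and those of differently numbered libraries at values from -0.17 to 0.0861. With 3 libraries per accession, these values cannot decide whether the replicate numbers pair the libraries. The log2 ratio of the zeatin sums, -3.01, became -3.64 with CPM summed and -3.98 without Capann_59Chr01g036340. That of the gibberellin sums, -1.86, became -1.25 with CPM summed, -2.20 as the median of the members, -1.09 without Capann_59Chr11g006970 and -2.84 without Capann_59Chr07g033870, the last chosen after seeing the data. Low counts limit the B010 values of Capann_59Chr11g006970, with 2 reads in replicate 2, and of Capann_59Chr07g026780, with 11 in replicate 3. They also limit the order of the B010 replicates of Capann_59Chr09g013450, with 66, 55 and 60 reads.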
